A study of Homo sapiens with 4 samples.

Results

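HOXB13 and its neighbours PRAC1 and PRAC2 are 3 genes that lie within 7032 bases of chromosome 17, and they were chosen by their levels and their shares of positive cells in these same libraries, so those values are given as a description without a test. They are 3 of the 33538 genes in the count matrices. The matrices come from single-cell RNA sequencing of LNCaP, an androgen-sensitive human line from a prostate cancer metastasis, and of lines derived from it. Enzalutamide (ENZ) is an antiandrogen given against prostate cancer. The 4 groups were LNCaP cells given 0.1% of the solvent DMSO for 48 h, LNCaP cells given 10 µM ENZ for 48 h (LNCaP-ENZ48), and RES-A and RES-B, which are ENZ-resistant derivatives maintained in 10 µM ENZ. RES-A was derived by growth in rising amounts of ENZ and RES-B by growth in RD-162, a related drug. Each group was 1 library of sorted living cells. A property of a line therefore cannot be told apart from one of its culture or library, and there was no replicate against which to check a difference.

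HOXB13 encodes a homeodomain transcription factor at the 5′ end of the HOXB cluster, the gene set that gives cells their position along the body axis. It is expressed in luminal prostate cells, and with the corepressor HDAC3 it is known to restrain lipid synthesis genes. PRAC1 and PRAC2 encode small nuclear proteins, and PRAC1 is known as a gene of the prostate, rectum and distal colon. Their functions are poorly understood.

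On GRCh38, with the GENCODE annotation, HOXB13 (ENSG00000159184) spans chr17:48724763-48728750 on the minus strand in 2 exons. PRAC2 (ENSG00000229637) spans chr17:48723185-48724758 on the plus strand, with 2 annotated transcripts. PRAC1 (ENSG00000159182) spans chr17:48721719-48722518 on the minus strand in 2 exons. PRAC1 and PRAC2 point away from each other, with 666 bases between their starts. PRAC2 and HOXB13 point towards each other, and only 4 bases separate their 3′ ends. The start of HOXB13 lies 6232 bases from that of PRAC1. Cell Ranger assigns a read by its strand, which matters for a pair of genes this close on opposite strands.

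**Figure D1:**
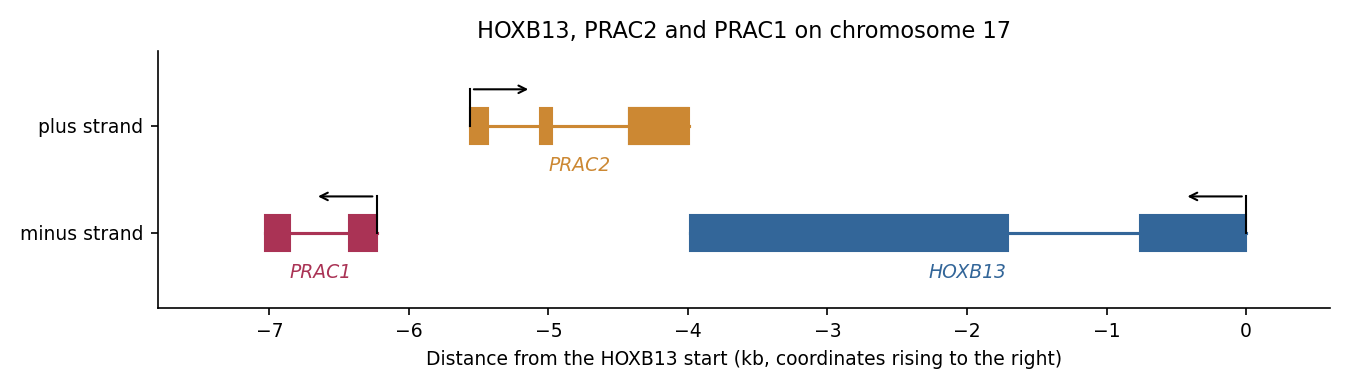
Map of the 3 genes drawn to scale. The x axis is the distance from the HOXB13 start in kb, boxes are exons of all annotated transcripts, and arrows mark starts and directions. PRAC1 and PRAC2 start 666 bases apart and point away from each other, while PRAC2 and HOXB13 meet with 4 bases between their 3′ ends.

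The sequences before the starts of PRAC1 and PRAC2 are shown because these 2 starts share the stretch between the genes and both genes were low in RES-B. They are the 250 bases before each start, taken from RefSeq on GRCh38.p14, which listed 2 of the 3 genes. The first is the minus strand of chr17:48722519-48722768 and the second the plus strand of chr17:48722935-48723184, so they do not overlap. Capitals mark a CCAAT box, written CCAAT or, on the other strand, ATTGG.
PRAC1: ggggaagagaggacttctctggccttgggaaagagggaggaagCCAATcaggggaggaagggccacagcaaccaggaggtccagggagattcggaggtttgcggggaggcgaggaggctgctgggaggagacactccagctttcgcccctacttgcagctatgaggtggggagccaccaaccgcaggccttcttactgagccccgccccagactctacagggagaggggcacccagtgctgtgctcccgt
PRAC2: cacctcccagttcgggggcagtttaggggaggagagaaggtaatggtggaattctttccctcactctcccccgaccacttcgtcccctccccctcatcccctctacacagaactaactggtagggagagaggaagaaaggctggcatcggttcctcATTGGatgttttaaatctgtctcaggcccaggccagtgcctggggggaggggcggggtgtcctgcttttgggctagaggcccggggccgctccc
The box begins at position -207 in the PRAC1 sequence and at -94 in the PRAC2 sequence, counted back from the start. On either strand, CCAAT was found in 32.0% of the 35116 sequences of this length in the table. The GC box GGGCGG was also present in both, and in 42.6% of all. Another 4 motifs were in neither. The posterior HOX motif CAATAAA, which overlaps the CCAAT box in 4 letters, was in 3.665% of all sequences. The forkhead motif TGTTTAC was in 2.98%. The E-box CACGTG was in 6.34%, and a TATA box spelled TATAAA in 10.7%. Each of the 2 sequences held 7 CpG sites, against a median of 11, and 41.1% of all sequences held fewer than 7. These are matches of letters and not measured binding sites. RefSeq gives PRAC2 a second start further downstream, whose sequence held GGGCGG, no CCAAT and 14 CpG sites.

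Levels were UMIs (unique molecular identifiers, 1 per captured RNA molecule) summed over the cells of a library and scaled to a library total of 1000000 (CPM). The libraries held 1782 to 4569 cells and 50208831 to 60838227 UMIs after the study's cell filter, with a median of 27079.5 UMIs per cell in LNCaP and 12138 to 13676 in the others. Between 2 and 9 cell barcodes were shared by any pair of libraries. Luminal markers summed to 1739 to 2370 CPM, and 7 of the 8 reached 10 CPM in a library. The basal genes KRT5 and TP63 had 0 UMIs in every library and KRT14 at most 15, in LNCaP. No marker of basal, fibroblast, immune, endothelial or neuroendocrine cells reached 10 CPM. Brackets below hold 95% intervals, which cover counting error only.

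PRAC1, the most abundant of the 3 genes in the parental line, was almost absent from RES-B. It was at 0.038 CPM in RES-B, against 394 CPM in RES-A. LNCaP had 771 CPM and LNCaP-ENZ48 1015 CPM. The RES-B value stands for 2 UMIs in 52571787 and has an interval from 0.0046 to 0.137 CPM. RES-B thus stood apart from the other 3 libraries, which were within a few-fold of each other. The log2 ratio of RES-B against LNCaP was -14.31 [-17.35, -12.45], the lowest of 8090 genes with at least 10 CPM in either library. Against RES-A, the other resistant line, it was -13.34 [-16.38, -11.49].

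PRAC2, which starts 666 bases away, was also lowest in RES-B but still present. It was at 13.9 CPM there, against 99.0 CPM in RES-A. LNCaP had 120 CPM and LNCaP-ENZ48 142 CPM. The log2 ratio of RES-B was -3.11 [-3.22, -3.00] against LNCaP and -2.83 [-2.95, -2.72] against RES-A, or 8.63-fold and 7.13-fold lower. It ranked 40 from the lowest of 8090 genes in the first comparison and 36 of 7954 in the second.

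HOXB13, whose 3′ end adjoins that of PRAC2, was not lower in RES-B than in RES-A. RES-B had 92.4 CPM and RES-A 92.0 CPM, while LNCaP had 135 CPM and LNCaP-ENZ48 157 CPM. The resistant lines were close to each other and below both parental libraries. The log2 ratio of RES-B against RES-A was 0.01 [-0.05, 0.06]. With LNCaP as the base, RES-A had -0.56 [-0.61, -0.50], or 1.47-fold lower, and RES-B -0.55 [-0.60, -0.50], or 1.46-fold lower.

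**Figure D2:**
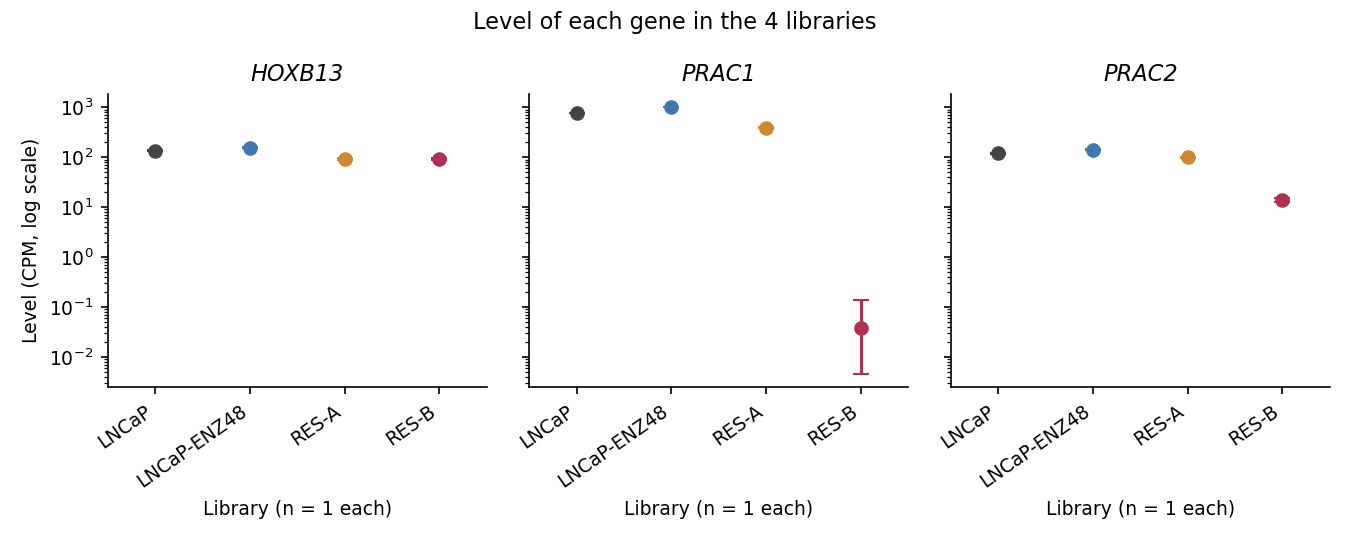
Level of HOXB13, PRAC1 and PRAC2 in each library in CPM on a log axis, with 1 library per point and exact Poisson 95% intervals, most of them smaller than the point. In RES-B, PRAC1 sits at 0.038 CPM and PRAC2 at 13.9 CPM, while HOXB13 is at 92.4 CPM, next to its 92.0 CPM in RES-A.

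After 48 h of ENZ all 3 genes were higher than in LNCaP, by less than 2-fold. The log2 ratio of LNCaP-ENZ48 against LNCaP was 0.40 [0.38, 0.42] for PRAC1, 0.24 [0.19, 0.29] for PRAC2 and 0.21 [0.17, 0.26] for HOXB13, beside a median of -0.08 over 7554 genes. In RES-A all 3 were lower than in LNCaP, with -0.97 [-0.99, -0.94] for PRAC1 and -0.28 [-0.33, -0.22] for PRAC2 besides the HOXB13 value above. TMM scaling put the PRAC1 ratio at -1.02, across the 2-fold line. The 3 comparisons with LNCaP share that library.

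Read against all genes, a 2-fold difference was rare after short treatment and commoner in resistance. In LNCaP-ENZ48, 0.728% of genes were lower and 0.212% higher than in LNCaP by 2-fold or more, and 0 of the 3 genes were in either class. In RES-A the shares were 4.99% lower and 4.8% higher, and again 0 of the 3 were called. In RES-B against LNCaP they were 3.73% lower and 5.76% higher, and in RES-B against RES-A 2.3% lower and 3.95% higher. PRAC1 and PRAC2 were among the lower genes in both of these, which is what the 3 genes were chosen on.

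The ratio of the genes to each other within a library does not depend on the scaling. For every 100 HOXB13 UMIs there were 15.02 PRAC2 UMIs in RES-B, against 108 in RES-A, 88.5 in LNCaP and 90.5 in LNCaP-ENZ48. The 2 parental libraries were alike in this ratio, with intervals of 85.5 to 91.7 and 87.9 to 93.2. PRAC1 UMIs per 100 HOXB13 UMIs numbered 0.041 in RES-B, 429 in RES-A, 570 in LNCaP and 648 in LNCaP-ENZ48. Between LNCaP and RES-A, then, PRAC1 was lower relative to HOXB13 and PRAC2 was higher.

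In single cells, PRAC1 was found in all 1782 LNCaP cells, with a median of 20 UMIs and a range from 1 to 73. The 0 negative cells allow a share without a UMI of up to 0.168% by a floor of 3 cells, and up to 0.207% by the exact interval. In LNCaP-ENZ48 4313 of 4315 cells had a PRAC1 UMI, and the other 2 held 6116 and 8360 UMIs in all. In RES-A 4465 of 4569 cells were positive (97.7%), and in RES-B 2 of 4061 (0.0492% [0.00596, 0.178]). The 2 positive RES-B cells had 1 PRAC1 UMI each and barcodes that occurred in no other library. The 846 RES-B barcodes that failed the cell filter held 0 PRAC1 UMIs in 7606931. Elsewhere PRAC1 was found in 79.9% of 576 failed barcodes in LNCaP, 79.5% of 497 in LNCaP-ENZ48 and 45.7% of 587 in RES-A. Its presence in all LNCaP cells thus holds for cells that passed a minimum of 16000 UMIs, against 5000 in the other libraries. Every cell in a library is from 1 line, so no cell type lacking these genes was at hand as a measure of free RNA. Its part in the 2 UMIs of RES-B was not tested.

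To compare shares at 1 depth, 5000 UMIs were drawn from each cell. PRAC1 was then found in 0 of 4061 RES-B cells, as the draw left out the 2 UMIs present at full depth. This allows a share of cells with a UMI at this depth of up to 0.0739% by the floor of 3 cells, and up to 0.0908% by the exact interval. It was found in 83.7% of RES-A, 94.0% of LNCaP and 98.4% of LNCaP-ENZ48 cells. With LNCaP first and RES-B last, PRAC2 was found in 44.4%, 46.7%, 37.7% and 6.92% of cells, and HOXB13 in 47.5%, 53.1%, 36.1% and 36.4%. Without thinning, the HOXB13 shares were 94.7%, 85.3%, 65.0% and 64.2%, and the PRAC2 shares 90.5%, 79.1%, 64.5% and 15.7%. The order of LNCaP and LNCaP-ENZ48 thus turned with depth, and the thinned order was that of the CPM. At 5000 UMIs all 3 genes were found together in 0 RES-B cells, against 12.3% of RES-A, 21.4% of LNCaP and 25.6% of LNCaP-ENZ48 cells. Not 1 of them was found in 59.5% of RES-B cells, against 7.0%, 2.41% and 0.533%.

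**Figure D3:**
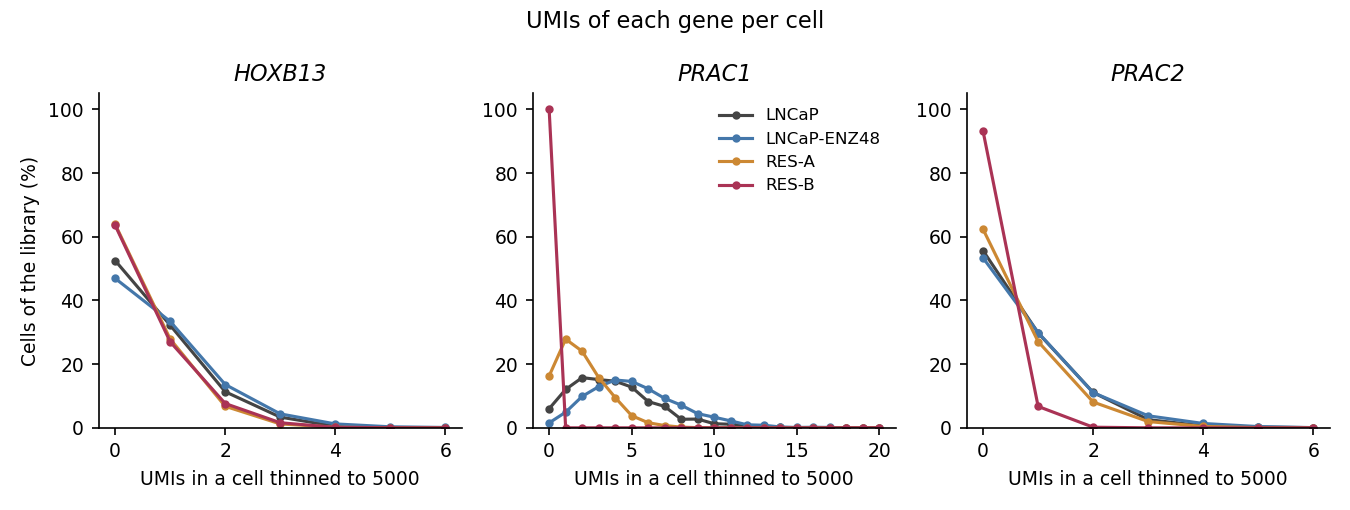
Share of cells in each library (y axis, %) by the number of UMIs of HOXB13, PRAC1 and PRAC2 in a cell thinned to 5000 UMIs (x axis). PRAC1 forms a single peak in each of LNCaP, LNCaP-ENZ48 and RES-A, with 83.7% or more of cells above 0, and every RES-B cell is at 0.

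The variance of the thinned counts divided by their mean, which is 1 for random sampling of equal cells, was 1.68 for PRAC1 in LNCaP, 1.54 in LNCaP-ENZ48 and 1.20 in RES-A. For PRAC2 it was 1.17, 1.32 and 1.18 in these libraries, and for HOXB13 1.07, 1.16 and 1.06. This measure grows with the level, and the mean was 1.98 to 5.23 UMIs per cell for PRAC1 against 0.460 to 0.810 for HOXB13, so it does not rank the genes by how unevenly they were expressed. PRAC2 in RES-B, at 0.0712 UMIs per thinned cell, was too low for its spread over cells to be read. PRAC2 was found at a higher share in HOXB13-positive than in HOXB13-negative cells in each of the 4 libraries. In LNCaP the shares were 47.8% [44.3, 51.2] and 41.3% [38.2, 44.6], and in LNCaP-ENZ48 49.0% [46.9, 51.1] and 44% [41.8, 46.2], where the intervals did not overlap. In RES-A they were 39.5% and 36.6%, and in RES-B 7.71% and 6.47%. In LNCaP, RES-A and RES-B the intervals overlapped. At 2000 UMIs they overlapped in LNCaP-ENZ48 too, at 26.53% [24.04, 29.13] and 23.78% [22.3, 25.32]. The direction at 5000 UMIs was not particular to PRAC2 with HOXB13. PRAC2 in PRAC1-positive against PRAC1-negative cells was at 44.96% and 35.51% in LNCaP, 46.68% and 44.78% in LNCaP-ENZ48, and 38.05% and 35.7% in RES-A. PRAC1 in HOXB13-positive against HOXB13-negative cells was at 94.21% and 93.8%, 98.69% and 98.17%, and 85.02% and 82.95% in these libraries. In every one of these pairs with PRAC1 the intervals overlapped. The PRAC1-negative cells numbered only 107 in LNCaP, with an interval of [26.5, 45.4], and 67 in LNCaP-ENZ48. At 2000 UMIs PRAC1 in RES-A was at 55.31% in HOXB13-positive and 55.46% in HOXB13-negative cells.

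The cell cycle phase divided the 3 genes. Cells were called G1, S or G2/M from the phase lists of Seurat, which hold none of them. HOXB13 was lowest in S phase in all 4 libraries. In LNCaP it was at 144 CPM in G1, 85.9 CPM in S and 123 CPM in G2/M, and in RES-B at 103, 51.2 and 71.0 CPM. The log2 ratio of S against G1 was -1.01 [-1.21, -0.82] in RES-B, -0.67 [-0.82, -0.53] in RES-A, -0.75 [-0.91, -0.59] in LNCaP and -0.82 [-0.99, -0.65] in LNCaP-ENZ48. Of 8328 genes with at least 10 CPM in any library, 0.36% were lower in S by 0.5 log2 or more in all 4 libraries, a limit set after these values were seen.

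PRAC2 was highest in G2/M in all 4 libraries. It was at 106 CPM in G1, 77.6 CPM in S and 183 CPM in G2/M in LNCaP, and at 127, 104 and 252 CPM in LNCaP-ENZ48. In RES-A it was at 89.4, 77.9 and 142 CPM. In RES-B, at a lower level, it was at 11.7, 11.1 and 23.4 CPM. The log2 ratio of G2/M against G1 was 0.80 [0.72, 0.88], 0.99 [0.91, 1.06], 0.67 [0.58, 0.75] and 1.01 [0.77, 1.24] in that order. By the same limit, 7.47% of genes were higher in G2/M in all 4 libraries. PRAC1 was highest in G1, with 815 CPM against 657 in S and 664 in G2/M in LNCaP, 1043 against 914 and 879 in LNCaP-ENZ48, and 417 against 349 and 348 in RES-A. The 2 genes that start side by side thus differed in the phase of their highest level in these 3 libraries. Many genes fell further than PRAC1. Of 8328 genes, 11.4% in LNCaP, 25.4% in LNCaP-ENZ48 and 14.9% in RES-A had a lower ratio of S against G1. For G2/M against G1 the shares were 13.0%, 14.4% and 16.8%.

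G2/M cells held more UMIs than G1 cells, with medians of 29450.5 against 26175.5 in LNCaP and 13734 against 11856.5 in RES-B. Within G1, the cells above the median number of UMIs had the lower PRAC2 level in every library, at 83.4 against 138 CPM below it in LNCaP and 10.4 against 13.7 CPM in RES-B, which is the opposite direction to that between the phases. HOXB13 in G1 was at 135 CPM above and 158 CPM below the median in LNCaP. It was at 143 and 188 CPM in LNCaP-ENZ48, and at 97.8 and 107 CPM in RES-A. These go in the same direction as in S. In RES-B HOXB13 was at 103 CPM on both sides. PRAC1 in G1 was at 782 CPM above and 862 CPM below the median in LNCaP. It was at 979 and 1141 CPM in LNCaP-ENZ48, and at 405 and 435 CPM in RES-A. This is the same direction as its lower levels in S and G2/M. S cells held a median of 31195 UMIs in LNCaP, 16436 in LNCaP-ENZ48 and 15006 in RES-B. What depth contributes to the phase differences was not tested.

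**Figure D4:**
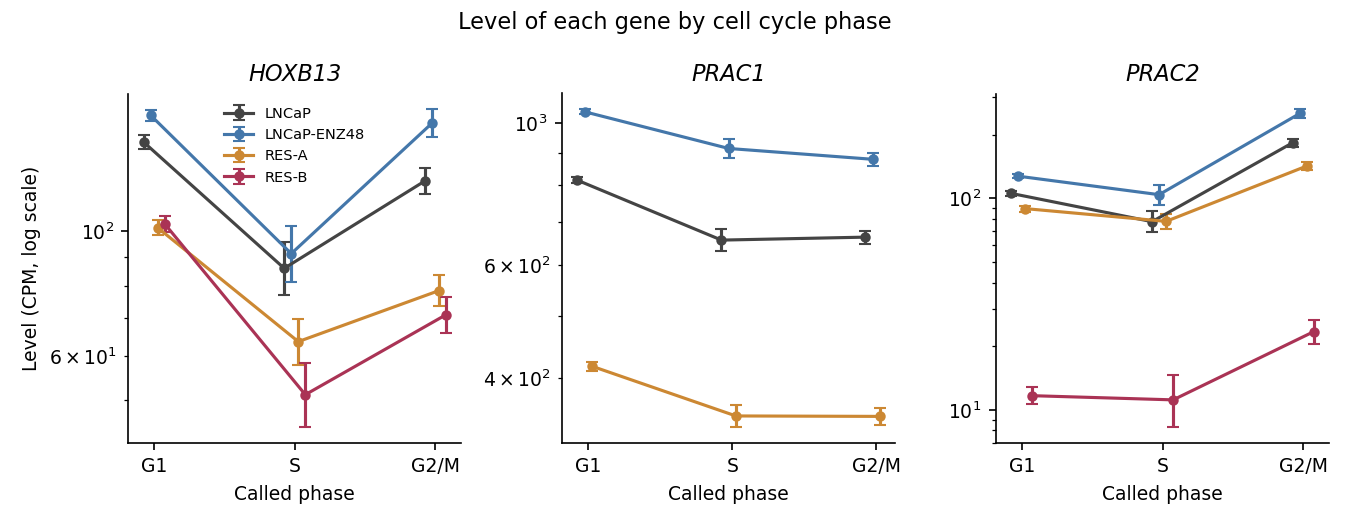
Level in CPM (log axis, with its own range in each panel) of the 3 genes in cells called G1, S and G2/M, 1 line per library with exact Poisson 95% intervals. RES-B is not drawn for PRAC1, where it had 2 UMIs. HOXB13 dips in S and PRAC2 peaks in G2/M in each of the 4 libraries.

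To see whether the surrounding chromosome differed along with PRAC1 and PRAC2, the 50 nearest other genes with at least 10 CPM in any library were compared. Their starts lie from -4383.5 kb to 2531.8 kb of the HOXB13 start. Their median log2 ratio against LNCaP was 0.15 in RES-B, 0.14 in RES-A and -0.06 in LNCaP-ENZ48, beside 0.12, 0.02 and -0.08 over 8328 genes. For RES-B against RES-A it was 0.08, beside 0.09. In each of the 4 comparisons 0 of the 50 were lower by 2-fold or more, beside 0.728% to 4.99% of all genes. Against LNCaP, RES-A had 3 of the 50 higher by 2-fold or more and RES-B had 4, near the 4.8% and 5.76% over all genes. The nearest, CALCOCO2, which encodes an autophagy receptor and starts 102 kb away, was at 79.6 CPM in RES-B, 77.4 in RES-A, 73.5 in LNCaP and 81.0 in LNCaP-ENZ48. Those higher in both resistant lines were PRR15L (log2 ratio 1.76 in RES-A and 1.81 in RES-B) and MAPT, the gene of the microtubule protein tau (1.22 and 1.13). SP2-AS1 was higher in RES-A alone by this limit (1.06), and FAM117A (1.28) and EPN3 (1.00, at the limit itself) in RES-B.

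**Figure D5:**
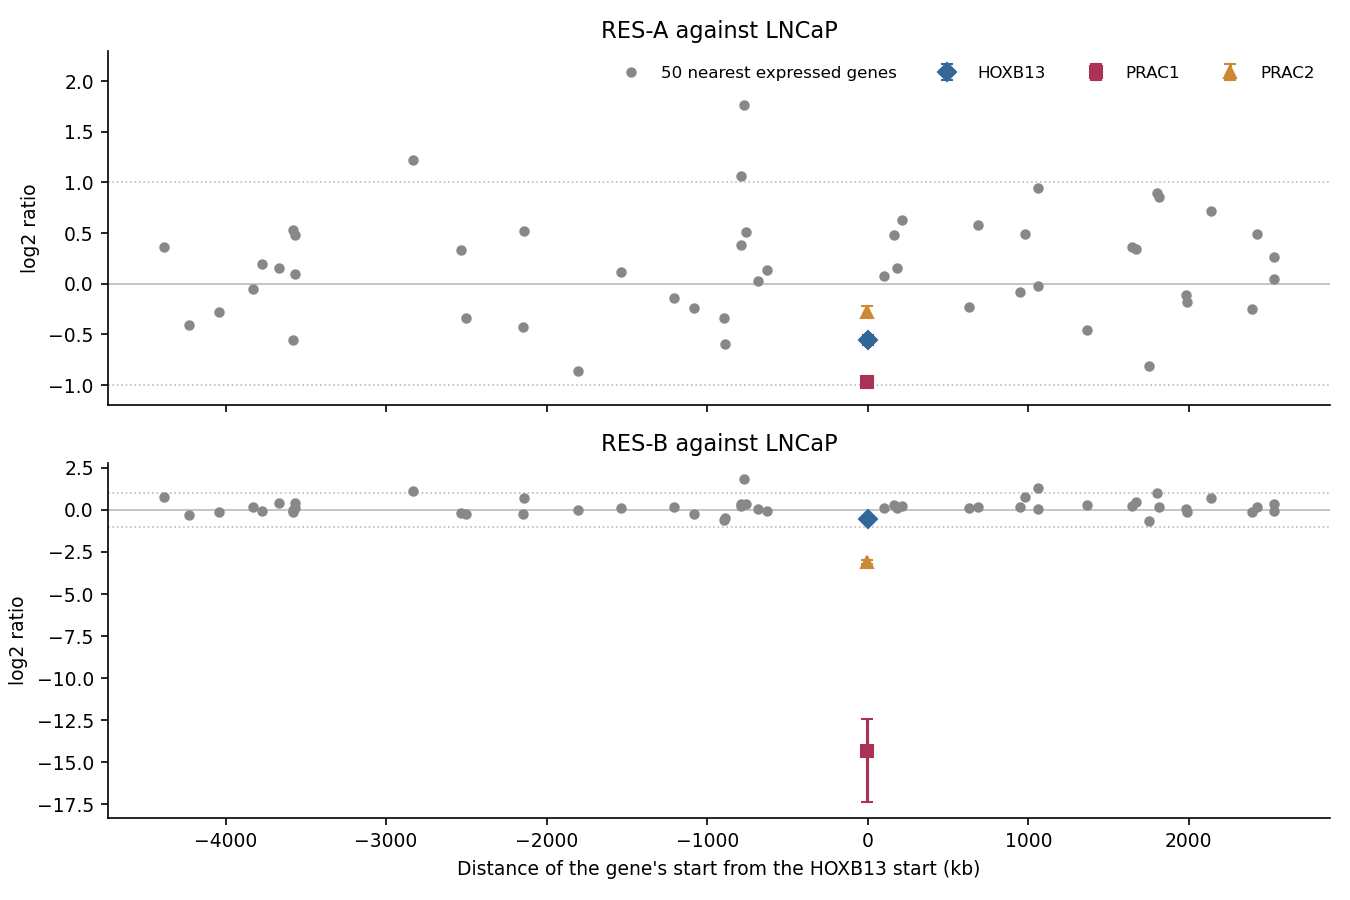
log2 ratio of the 50 nearest genes with at least 10 CPM (grey) and of HOXB13, PRAC1 and PRAC2 by distance of the gene's start from the HOXB13 start in kb, for RES-A and RES-B against LNCaP, with separate y axes. Dotted lines mark 2-fold and bars are counting intervals. In RES-B, PRAC2 at -3.11 and PRAC1 at -14.31 lie below all 50 neighbours, whose lowest value is -0.68.

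The rest of the HOXB cluster, whose nearest start is that of HOXB7 at -95.2 kb, was scarcely expressed. HOXB1 to HOXB9 encode the other homeodomain proteins of the cluster. None of these 9 genes reached 10 CPM, and they summed to 4.49 to 11.2 CPM. Their patterns differed from one another. HOXB5 was lower in both resistant lines, as HOXB13, PRAC1 and PRAC2 were. It had 28 UMIs in LNCaP against 5 (RES-A, log2 ratio -2.68 [-4.41, -1.29]) and 0 (RES-B). Unlike them, HOXB5 was also lower in LNCaP-ENZ48, with 16 UMIs (-1.08 [-2.07, -0.15]). HOXB4 had 9 UMIs in LNCaP, 1 after short treatment and 0 in either resistant line. HOXB9 stood at 5.76 CPM in RES-A, against 1.29 in LNCaP, 1.40 in LNCaP-ENZ48 and 1.24 in RES-B (2.15 [1.76, 2.56] for RES-A over LNCaP). HOXB6 was also highest in RES-A, at 5.04 CPM against 1.63 in LNCaP and 2.62 in RES-B. HOXB7 went the other way, with 54 UMIs in LNCaP and 4 in RES-A, a log2 ratio of -3.95 [-5.87, -2.51], and 48 in RES-B. HOXB3 had its highest level in RES-B, at 1.52 CPM against 0.279 CPM in LNCaP (2.45 [1.62, 3.38]). TTLL6, which starts 88.5 kb away on the other side, also stayed below 10 CPM and was lowest in RES-B. It was at 0.685 CPM there (36 UMIs), 0.959 in RES-A, 1.38 in LNCaP-ENZ48 and 1.49 in LNCaP (75 UMIs).

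Among the paralogs of HOXB13 in the other HOX clusters, HOXD13 differed most. It had 0 UMIs in LNCaP and LNCaP-ENZ48, 468 in RES-A (8.16 CPM) and 7 in RES-B. With a floor of 3 UMIs in place of the count of 0, RES-A was 136.6-fold higher than LNCaP, or 7.09 on the log2 scale. The exact interval of this ratio has a lower limit of 6.79 and no upper limit. HOXC13 was highest in RES-B, at 7.53 CPM against 3.27 in LNCaP (1.21 [0.94, 1.48]), and was at 4.24 CPM in RES-A. HOXA13 had at most 2 UMIs. HOXB13 was the only one of the 4 to reach 10 CPM.

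The TALE proteins are homeodomain partners of HOX factors. Of 10 TALE genes 4 reached 10 CPM, and 0 of these differed by 2-fold in any comparison, which with 4 genes is near the shares of 0.212% to 5.76% over all genes. Among them PKNOX1 was the highest in RES-A (0.42 [0.28, 0.56]). Of 6 genes of the NCoR and HDAC3 corepressor 5 passed. TBL1XR1, a subunit of this complex, was lower than LNCaP in RES-A (-1.05). That made 1 of the 5 lower by 2-fold there, beside 4.99% of all genes. HDAC3 itself was at 19.6 to 22.0 CPM in the 4 libraries.

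Prostate luminal transcription factors gave a mixed picture, with 8 of 10 passing the minimum. Against LNCaP, 2 of the 8 were lower by 2-fold or more in RES-A and 0 higher, beside 4.99% and 4.8% of all genes. SPDEF, an epithelial factor of the ETS family, was 1 of these (-1.25). In RES-B 1 was lower and 1 higher, beside 3.73% and 5.76%, and the higher was CREB3L4 (1.13). Of 6 lipid synthesis genes, all 6 passed. ELOVL6, a fatty acid elongase, was higher in RES-B (1.73) and RES-A (1.29), and ACACA, which encodes acetyl-CoA carboxylase, was lower in RES-A (-1.05). Each was 1 of 6 past 2-fold in its direction. Over all genes 5.76% were higher in RES-B, and 4.8% higher and 4.99% lower in RES-A. The list's median against LNCaP was 0.74 in RES-B and 0.24 in RES-A, beside 0.12 and 0.02 over all genes. HOXB13 was at 92.4 and 92.0 CPM in these lines, and a link between its level and these genes was not tested.

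The genes whose pattern over the 4 libraries was most like each member were found by the distance between log2 CPM values centred on their mean, among 2909 genes with at least 50 CPM in any library. For HOXB13 they were BLOC1S6 (distance 0.0825), EIF3F, RPS13, DNAJC4 and FAM111A. BLOC1S6 was at 143 CPM in LNCaP, 170 in LNCaP-ENZ48 and 104 in each resistant line. For PRAC2 they were SYCE3 (0.557), BTG3, NDUFB4, PHLDA3 and AL139246.5. SYCE3, a gene of the synaptonemal complex, was at 9.89 CPM in RES-B, 48.0 in RES-A, 51.0 in LNCaP and 68.7 in LNCaP-ENZ48. By this distance PRAC1 had no close match, as CBLN2, the nearest, was at a distance of 5.66, with MT1G, MMP16, EFNA5 and S100P after it. CBLN2 was at 0 CPM in RES-B, 80.3 in RES-A, 8.48 in LNCaP and 19.5 in LNCaP-ENZ48. It shared the near absence from RES-B but, unlike PRAC1, was higher in RES-A than in LNCaP. Ranked by Pearson's correlation, which ignores the size of a difference, RPL10 came first for PRAC1 and for PRAC2, PRAC2 ranked 4 for PRAC1 and PRAC1 ranked 3 for PRAC2. The pattern rests on 4 points and most of these names change with the measure of likeness.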

How the data were processed

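Living cells had been sorted and made into Chromium 3′ v3 libraries. The authors ran Cell Ranger 3.0.2 on GRCh38 to obtain the deposited UMI counts, which are unnormalized and cover barcodes called as cells. Groups came from the sample titles, with 1 library each. Cells were kept by the study's limits. LNCaP cells had 3000 to 7000 genes, 16000 to 50000 UMIs and under 15% mitochondrial UMIs. Elsewhere the limits were 1500 to 5000 genes, 5000 to 25000 UMIs and, for mitochondrial UMIs, 15% (LNCaP-ENZ48), 17% (RES-A) or 20% (RES-B). This kept 1782 of 2358, 4315 of 4812, 4569 of 5156 and 4061 of 4907 barcodes. The study states slightly more cells for LNCaP-ENZ48 and RES-B. Doublets were not removed.

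UMIs were summed over cells, and no test was run, since cells are not replicates and the study's test over cells does not apply to 1 library per group. Levels have exact Poisson intervals, log2 CPM ratios exact conditional binomial (Clopper-Pearson) intervals and shares exact binomial intervals, computed with scipy 1.17.1. They cover counting error only. Where a count was 0, a floor of 3 UMIs per library took its place, and a share of 0 cells was also given the limit of 3 cells. Called means a ratio of 2-fold or more in 1 direction among genes at 10 CPM or more in either library. Phases were called with scanpy 1.11.5 on cells thinned to 5000 UMIs, with the S and G2/M lists of Seurat 5.3.0 (42 and 52 genes found), all libraries together. Positions came from GENCODE 44 and upstream sequences from RefSeq (GRCh38.p14). The ratio and thinning code was tested on simulated data. Scaling alternatives used edgeR 4.0.16 and DESeq2 1.42.0.

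The 3 genes, the gene lists and the comparisons were chosen with earlier results of these data known. Genes named were the 3 members, up to 4 per list with the highest and lowest ratios, neighbours past 2-fold and the 5 most alike genes per member. HOXB, HOXD13, HOXC13, HOXA13, CALCOCO2, TTLL6, HDAC3, RPL10 and SPDEF were named after their values were seen. Some genes of the lists are not reported here.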

Additional observations from a re-analysis of the deposited data

Results flagged for a closer look

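All 3 genes were higher than LNCaP after 48 h of ENZ and lower than LNCaP in both resistant lines, so the signs were opposite. For HOXB13 the log2 ratio was 0.21 after short treatment, and -0.56 (RES-A) and -0.55 (RES-B) in resistance. For PRAC1 the values were 0.40, -0.97 and -14.31. For PRAC2 they were 0.24, -0.28 and -3.11. With 1 library per group the difference between the short-treated and the resistant libraries was not tested, and the 3 ratios of a gene share the LNCaP library. Length of exposure cannot be told apart from the line.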

How the results depend on the processing

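No ratio of the 3 genes whose interval excludes 0 changed sign under any alternative. The ratios stayed inside their intervals with all deposited barcodes, 1 common filter, a floor of 1 UMI, or without the 5% of cells with the most UMIs. TMM gave HOXB13 0.31, -0.61 and -0.66, PRAC1 0.49 and -1.02, and PRAC2 0.34 and -0.33, and DESeq2 size factors HOXB13 0.31 and -0.65, PRAC1 0.50 and -1.01, and PRAC2 0.34, each against LNCaP in the order LNCaP-ENZ48, RES-A and RES-B where moved (HOXB13 by DESeq2 in LNCaP-ENZ48 and RES-B). HOXB13 in RES-B against RES-A was -0.053 by DESeq2. Cells called G1 gave HOXB13 0.16 and -0.48 (LNCaP-ENZ48, RES-B) and PRAC1 0.36 (LNCaP-ENZ48). Shares moved with the depth to which cells were thinned and stayed inside their intervals with 1 common filter. The neighbour median in RES-B was 0.042 with TMM. Of the 5 most alike genes, 1 (HOXB13), 0 (PRAC1) and 1 (PRAC2) remained by Pearson's correlation, and 1, 2 and 1 with a minimum of 10 CPM. With phases called per library, PRAC1 in S in LNCaP was -0.37. With levels from thinned cells, an alternative added after seeing the data, LNCaP had -0.070 (HOXB13, G2/M), -0.19 and -0.25 (PRAC1, S and G2/M) and -0.72 and 0.69 (PRAC2, S and G2/M), HOXB13 in S in LNCaP-ENZ48 was -1.14, and PRAC2 in S in RES-B was -0.57. The cause of these shifts was not tested. No paired analysis was possible because each group is 1 library. PRAC1 in RES-B rests on 2 UMIs, so its ratio is known only to within its interval.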
